A study of Anguilla anguilla with 3 samples.

Results

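The ovary of a silver eel was set against the ovary of a yellow eel, gene by gene, over all 45974 rows with a gene identifier in the table of predicted genes of the European eel (Anguilla anguilla), of which 71.1% carry a protein name. These are 2 of the 3 libraries measured, with 1 eel behind each. The silver eel was labelled prepubertal and was taken from Lake Grevelingen in December 2008. The yellow eel was taken from Lake Veerse in April 2010. The third eel, labelled post-spawning matured, was from Lake Veerse and was sampled in May 2010. It entered the scaling of the counts, and its values are named where they are shown. From each eel 3 pieces of gonad were pooled, and 10 micrograms of total RNA went into an mRNA library for Illumina sequencing. Life stage, lake, season and the individual animal cannot be told apart in this comparison. With 1 eel a stage there is no replicate check and no test, and every difference given is a difference between these libraries.

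Yellow eels are the growing, feeding form of the freshwater eel, and silvering turns them into the migrants that leave for the ocean. At silvering the eyes enlarge, the skin changes colour, feeding stops, and the ovary moves from early oocyte growth towards the phase in which oocytes store lipid. Puberty then stays blocked until the migration, because the pituitary releases little gonadotropin. The ovary holds oocytes, which make egg coat proteins and store RNA for the embryo, and somatic follicle cells, which make steroids from cholesterol, besides blood vessels, connective tissue and immune cells.

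The silver library held 41426808 reads and the yellow library 27811764 reads, with 98.2% of silver and 97.9% of yellow reads aligned at a unique place. Reads were scaled to counts per 1000000 reads (CPM) with factors that correct for the makeup of the libraries. Both libraries were rich in egg coat transcripts. The oocyte growth factor genes gdf9 and bmp15 were well above the counting limit, at 116 and 151 CPM in the silver library against 60.9 and 117 CPM in the yellow library. The follicle cell factor foxl2 (g429) was low, at 11.1 CPM in silver and 3.65 CPM in yellow ovary. The gonadotropin receptor row fshr was under 1 CPM in both libraries. The follicle cell steroid gene 3bhs (g10190) had 39.8 silver CPM and 70.8 yellow CPM. Defining markers of the oocyte were thus clearly present in both, and markers of the follicle cells ranged from under 1 CPM to well above the 10 CPM minimum.

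Of 12462 genes that reached 10 CPM in silver or yellow ovary, 460 were at least 4-fold higher in the silver eel and 178 at least 4-fold lower, and the ratio was taken after 1 CPM was added to both values. The background against which every list has to be read is therefore 3.69% higher and 1.43% lower, or 5.12% in either direction. Because 1 CPM is added, a gene printed with a plain fold slightly over 4 can fall outside the count. Higher genes made up 72.1% of those past the 4-fold threshold. With the authors' RPKM values, which are divided by transcript length and by the library total, 322 genes were higher and 312 lower, or 50.8% higher. There the minimum of 10 and the added 1 were in RPKM, so a different set of 13072 genes was counted. With counts divided by library totals alone 396 were higher and 188 lower, or 67.8% higher. The excess of higher genes was thus seen with both scalings of the counts. It was not seen with RPKM, where the minimum and the genes counted differed as well as the scaling. Most genes differed little. In all 8758 genes, or 70.3%, lay within 2-fold, and the median log2 ratio was 0.09.

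**Figure D1:**
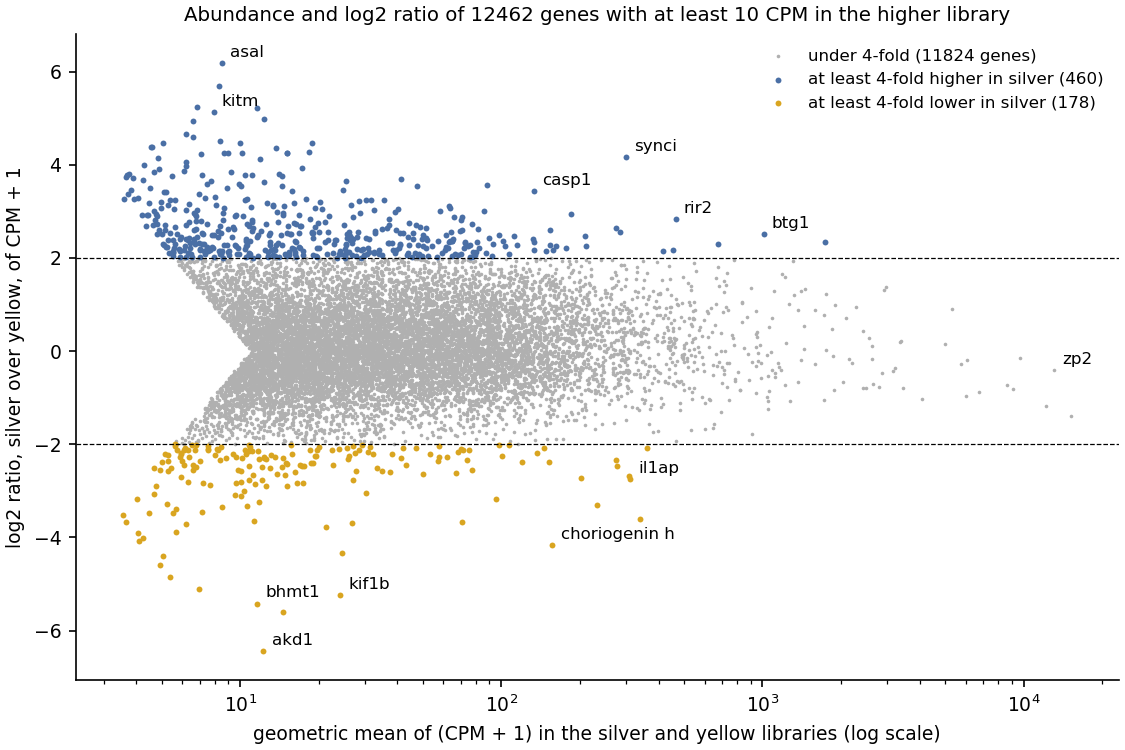
Each point is a gene, with the geometric mean of its CPM + 1 in the silver and yellow libraries on the horizontal log axis and its log2 ratio of silver over yellow on the vertical axis. The 460 higher genes past the 4-fold threshold (blue) and the 178 lower ones (yellow) occur at all abundances, and labels mark genes named in the text.

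Large ratios were rarer. At 8-fold 105 genes were higher and 38 lower, at 16-fold 27 higher and 12 lower, and at 32-fold 5 higher and 5 lower. Genes past the 4-fold threshold occurred at every abundance: among 117 genes that reached 1000 CPM 4.27% were higher and 0.855% lower, and among 5129 genes between 10 and 30 CPM 3.76% were higher and 1.70% lower. In all, the higher genes took 3.91% of the scaled silver reads against 0.687% of the yellow reads. The lower genes took 0.222% of the silver reads against 1.52% of the yellow reads. Just inside the threshold stood snx3 and map1a among higher genes and tcna and tdrd7 (g42983) among lower genes, and just outside it stood faim1 and minp1, and grip2 and svil. Their log2 ratios ran from 1.999 to 2.006 on the higher side and from -2.014 to -1.998 on the lower side. In bulk RNA of whole gonad pieces, fewer cells of a type and less RNA per cell cannot be told apart, and this holds for all values that follow.

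The genes with the highest ratios in the silver library code for proteins of many kinds, among them a lectin, a TRIM-type protein, a transposon-derived protein and nucleoside kinases. The row asal (g1279), described as a mannose-specific lectin, had 71.6 CPM in the silver library and no reads in the yellow library, which against 3 reads as a floor makes it at least 635-fold higher. A nuclease-like HD domain protein, samh1 (g28115), known in mammals to break down the building blocks of DNA, had 19.99 CPM in the silver library and no reads in the yellow library, at least 177-fold higher. The coenzyme Q-binding protein cq10x (g8592) had 12.97 CPM in the silver library and likewise no reads in the yellow library, at least 115-fold higher. These 3 are among 6 higher genes that had no yellow reads at all. The other counted samh1 row had a log2 ratio of 0.99.

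The sulfotransferase hs3s4 (g9170), which modifies heparan sulfate chains, had 22.9 CPM in the silver library against 0.0752 CPM in the yellow and was 304-fold higher (83.9 to 2515). In all folds the range in brackets is a 95% interval that covers counting error only. The centrosomal protein ce170 (g7500) had 31.2 silver CPM and 0.338 yellow CPM, 92.3-fold higher (48.5 to 202). The transposon-derived row pol4 (g18574) had 70.2 CPM in silver ovary against 0.902 CPM in yellow ovary, 77.8-fold higher (52.2 to 122). In each of these the yellow value was under 1 CPM, as it was in 54 of the 460 higher genes.

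Other genes in this group had more yellow reads. The mitochondrial inner membrane protein hig1a (g1311), a gene induced by low oxygen in mammals, had 80.1 CPM in the silver library against 3.16 CPM in the yellow, 25.4-fold higher (20.4 to 31.9). The matrix protein mxra5 (g14386) had 36.96 silver CPM and 0.977 yellow CPM, 37.8-fold higher (25.7 to 58.1). The homeobox factor hxa3a (g1764), a position gene of the embryo, had 43.4 CPM in silver ovary against 1.32 CPM in yellow ovary, 32.97-fold higher (23.6 to 47.5). The gene synci (g16019), which codes for the intermediate filament protein syncoilin, stood out for its abundance, with 1266 CPM in the silver library against 69.5 CPM in the yellow, 18.2-fold higher (17.4 to 19.1). It had 172 CPM in the matured library, so the silver value was the highest of the 3 eels.

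**Figure D2:**
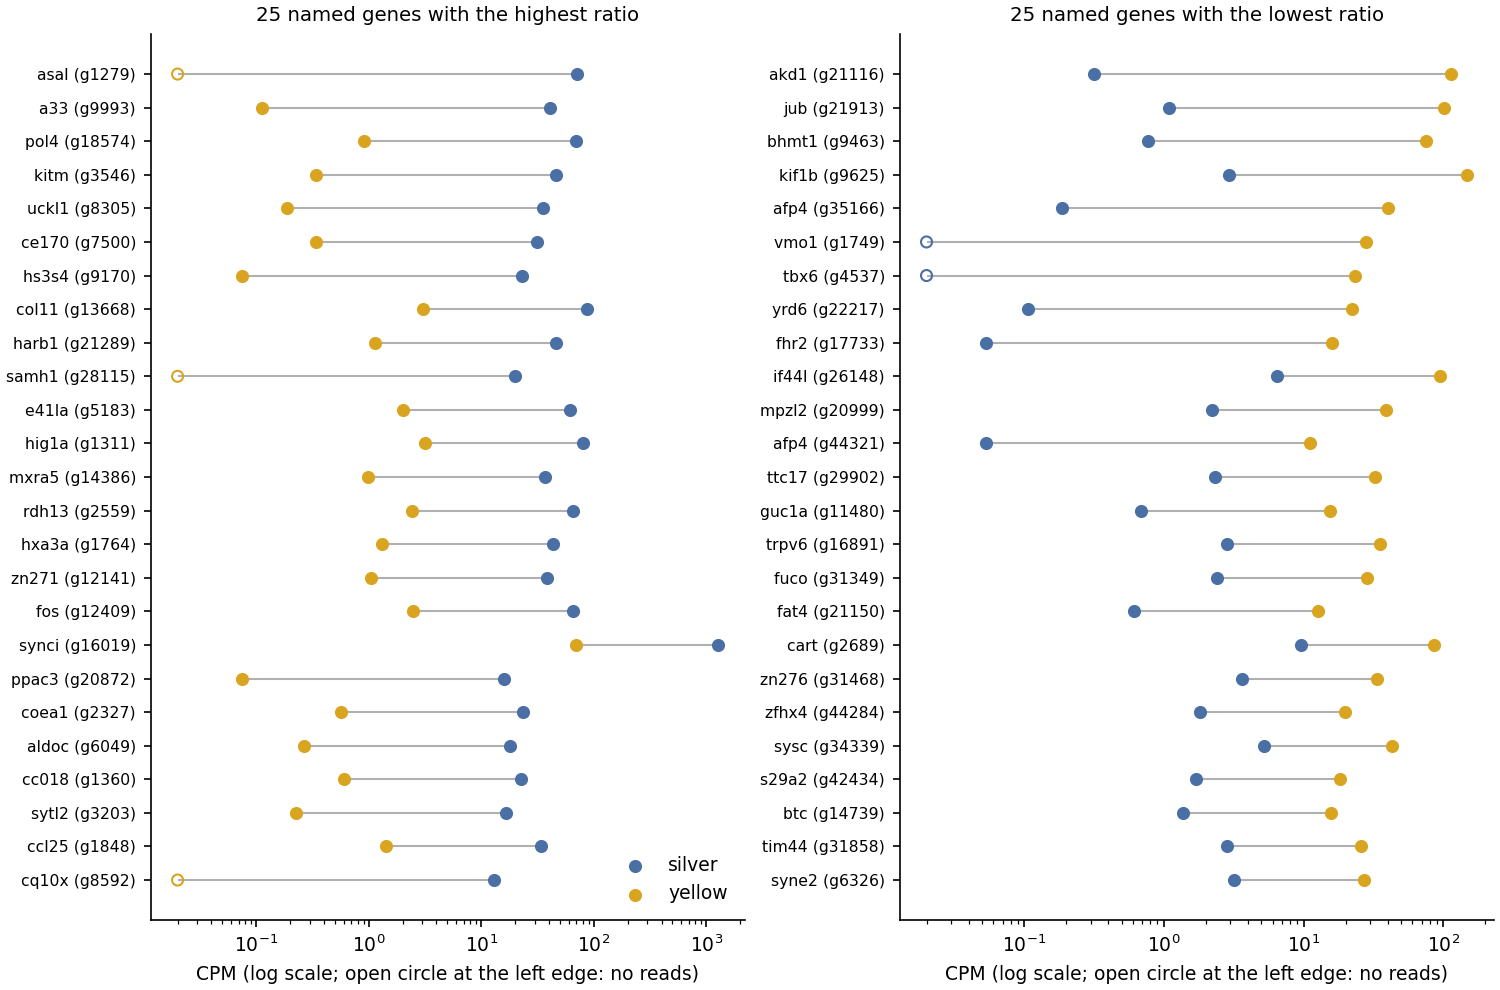
CPM on a log axis of the 25 named genes with the highest ratio (left) and the 25 with the lowest ratio (right), with the silver library in blue and the yellow library in yellow, and an open circle for a library without reads. The silver value of synci was 1266 CPM, and akd1 had 0.318 CPM in the silver against 113 CPM in the yellow library.

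The genes with the lowest ratios coded for an adenylate kinase, a junction protein, a methyl transfer enzyme, a motor protein, an egg envelope protein and a T-box factor. The adenylate kinase domain gene akd1 (g21116) had 0.318 silver CPM and 113 yellow CPM and was 356-fold lower (204 to 689.8). The gene jub (g21913), coding for ajuba, an adaptor at cell junctions, had 1.09 CPM in silver ovary against 101 CPM in yellow ovary, 92.6-fold lower (68.04 to 129). Betaine-homocysteine methyltransferase, bhmt1 (g9463), had 0.769 CPM in the silver library against 74.9 CPM in the yellow, 97.4-fold lower (67.6 to 146). All 3 were thus well above the 10 CPM minimum in the yellow library and near 1 CPM or below it in the silver library.

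The kinesin motor gene kif1b (g9625) had 2.94 silver CPM and 147 yellow CPM, 50.1-fold lower (41.5 to 61.03). The other counted kif1b row had a log2 ratio of -0.49. The row vmo1 (g1749), named after a vitelline membrane protein of eggs, was without silver reads and had 27.8 CPM in yellow ovary, at least 349.7-fold lower. The T-box factor tbx6 (g4537), a gene of early mesoderm, likewise had 23.2 CPM in yellow ovary and no silver reads, at least 292-fold lower. The matured library had no reads of vmo1 or tbx6 either, so reads of these rows were seen in the yellow eel alone.

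Another pair of rows did not share that pattern. Both rows afp4 (g35166 and g44321), named after an antifreeze protein of sculpin, were low in the silver library, at 0.186 and 0.05303 CPM, against 40.1 and 11.1 CPM in the yellow library. They had 263 and 116 CPM in the matured library. The appetite peptide gene cart (g2689) had 9.57 CPM in silver ovary against 86.2 CPM in yellow ovary, 9.004-fold lower (8.05 to 10.1), and the calcium channel trpv6 (g16891) had 2.84 CPM in the silver library against 35.3 CPM in the yellow, 12.5-fold lower (10.2 to 15.4). Of the immune genes in this group, the complement regulator relative fhr2 (g17733) had 0.05303 silver CPM and 16.01 yellow CPM and was 302-fold lower (83.1 to 2501).

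Transcript length moved with the ratio. With genes split by length into 5 groups of equal size, the median log2 ratio was -0.26 in the shortest group, of 73 to 886 bases, against 0.22 in the middle group. The shortest group held 84 of the 178 lower genes, or 3.37% of its own genes, while the longest group held 18, or 0.721%. The median length was 2076 bases for higher genes, 1040 bases for lower genes and 1926 bases for all genes counted. With the trend over length removed, 465 genes were higher and 151 lower. Names were sparser among lower genes too: 57.3% of them carried a protein name, against 79.6% of higher genes and 88.1% of all genes counted. Of the lowest named rows several are short pieces, such as s29a2 (g42434) with 104 bases, sysc (g34339) with 180 and tim44 (g31858) with 235.

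**Figure D3:**
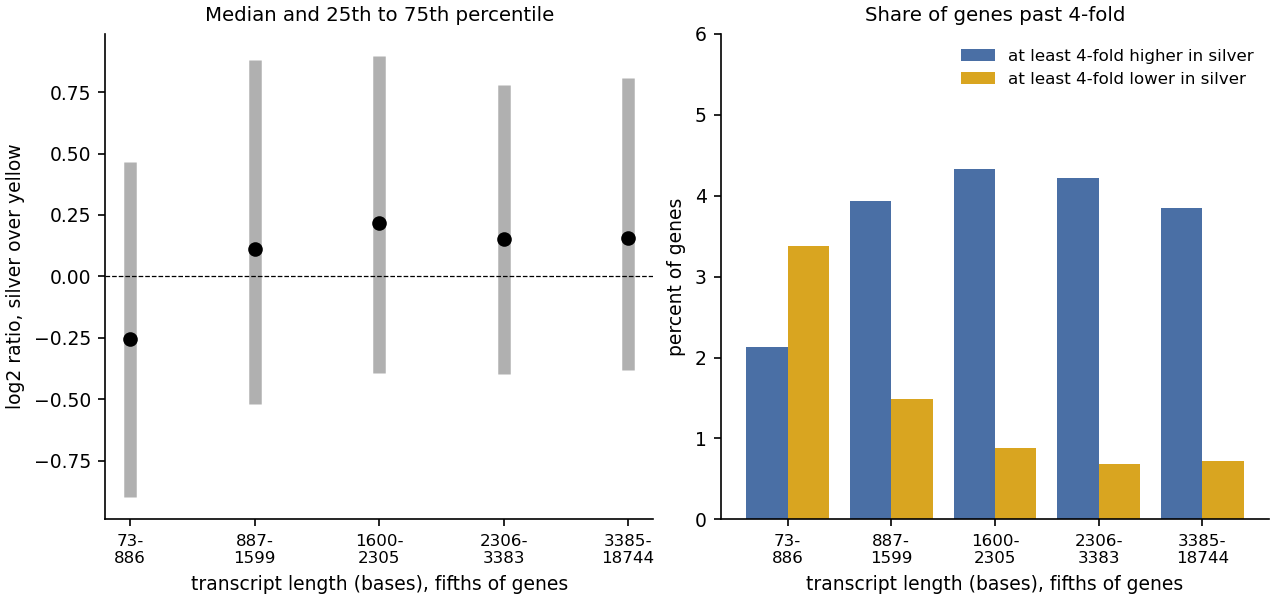
Left, median (dot) and 25th to 75th percentile (bar) of the log2 ratio of silver over yellow in 5 groups of genes by transcript length in bases. Right, percent of each group at least 4-fold higher (blue) or lower (yellow) in silver ovary; the shortest group has a median of -0.26 and the only share of lower genes above that of higher genes, 3.37% against 2.13%.

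Genes were then read by what their proteins do, in 57 lists picked by name and description. The lists held 1981 of the genes with at least 10 CPM, of which 84 were past the threshold as higher and 32 as lower. This is close to the shares over all 12462 genes, 3.69% higher and 1.43% lower. For list medians all members with at least 1 CPM on average were used, and over all 23901 such genes the median log2 ratio was -0.0013. The highest medians were those of fatty acid-binding proteins (1.33, 4 members), steroid synthesis (0.94, 17 members) and immediate early genes (0.86, 58 members). The lowest were those of the egg coat (-0.48, 21 members), smooth muscle genes (-0.44, 57 members) and translation factors (-0.43, 125 members). A ratio above 0 was found in 11929 of the 23901 genes, the number against which such counts in a list are to be read. Genes are not replicates, so medians and counts describe these libraries and are no test. The lists were also chosen with earlier results of these data known.

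**Figure D4:**
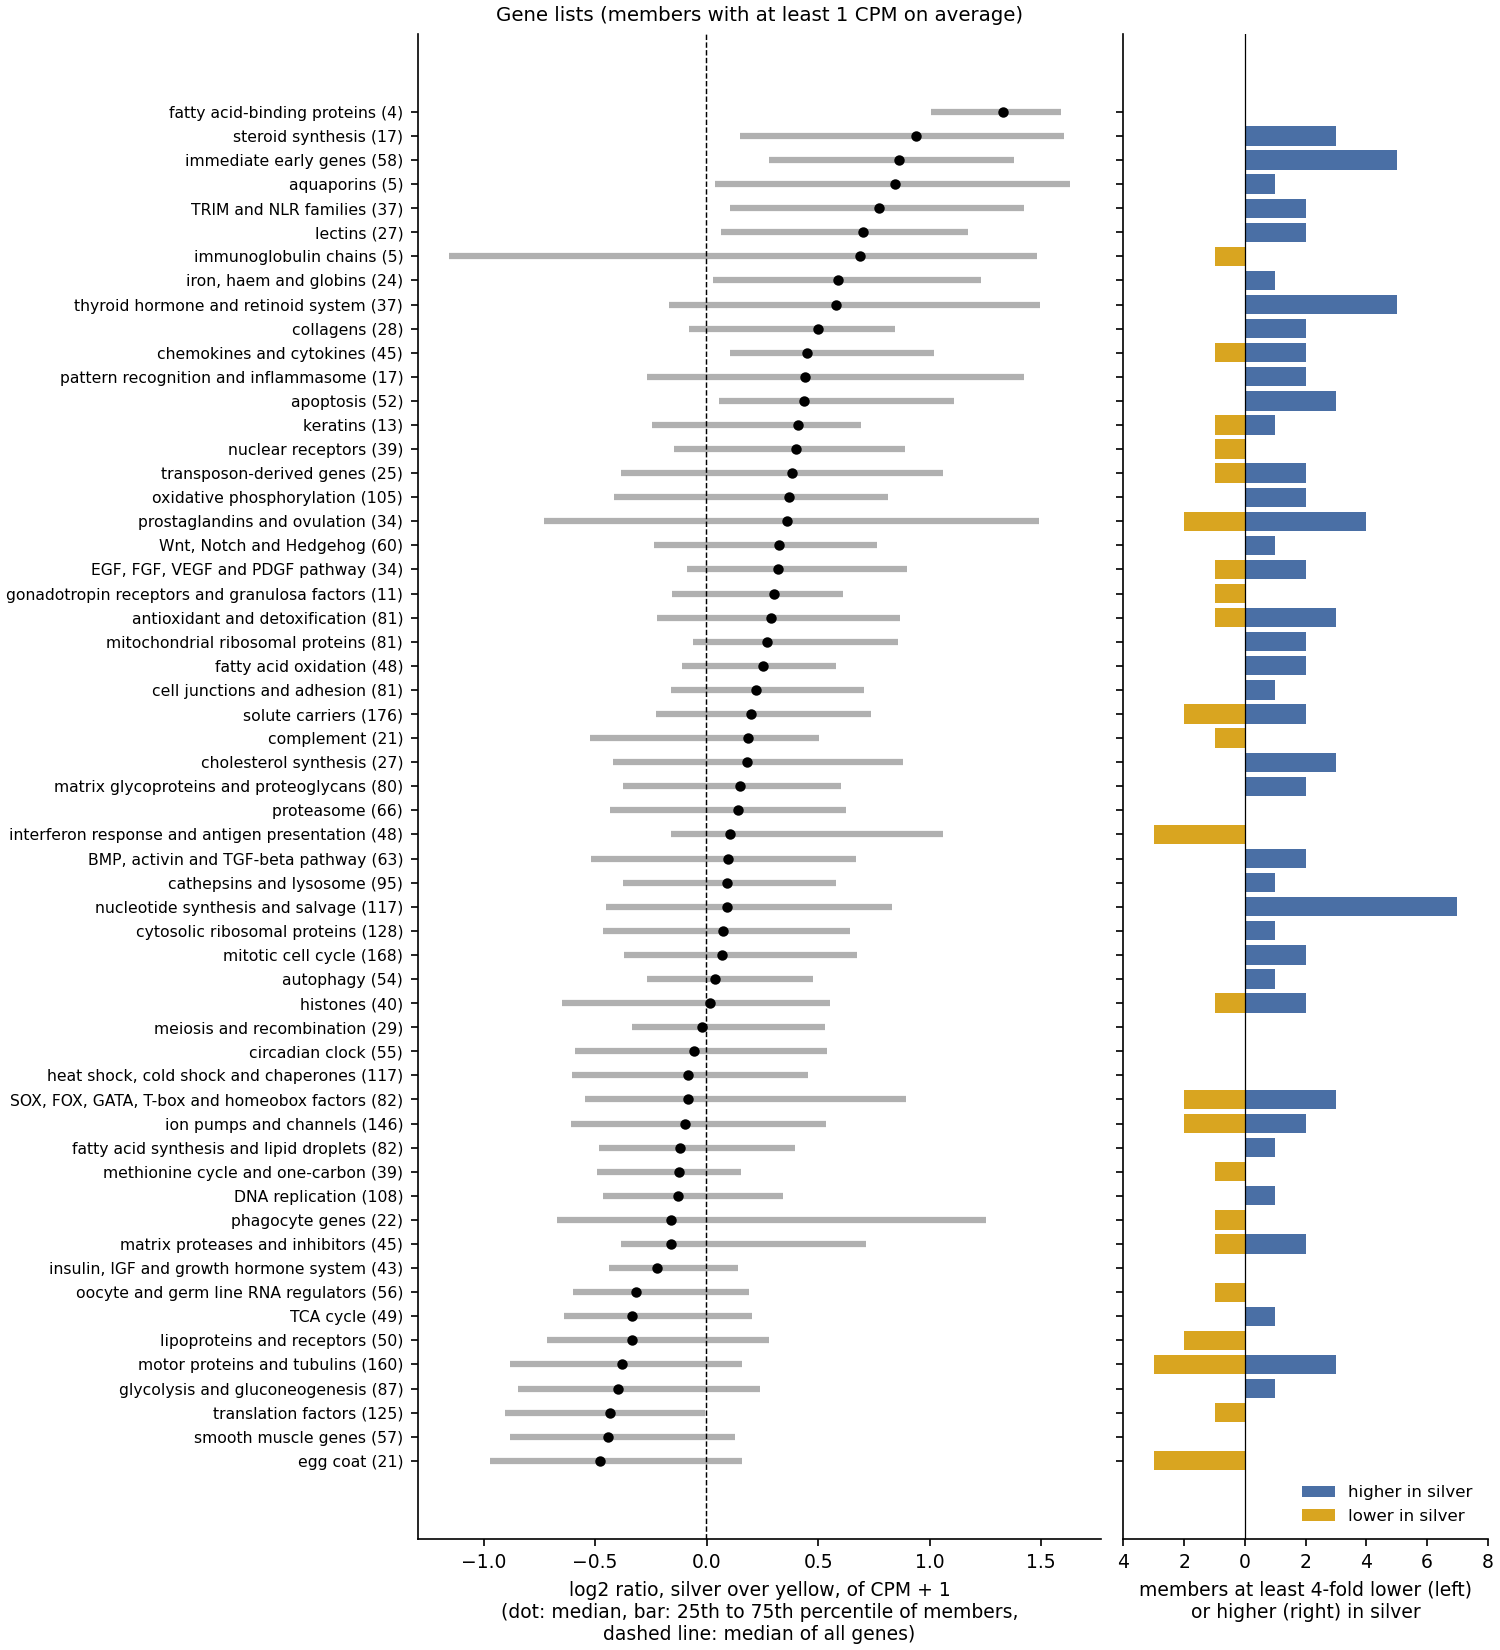
Left, the median (dot) and 25th to 75th percentile (bar) of the log2 ratio of silver over yellow for the members of each of 57 gene lists, with the number of members at 1 CPM or more in brackets and the median of all genes as a dashed line. Right, how many members were at least 4-fold lower (yellow, to the left) or higher (blue, to the right); nucleotide synthesis and salvage had 7 higher and 0 lower members, the egg coat list 0 higher and 3 lower.

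Steroid synthesis starts with the cleavage of the cholesterol side chain and runs through progestins to androgens and oestrogens. In the silver library the cleavage enzyme and the enzyme that opens the androgen route were higher than in the yellow library, and the enzyme between them was lower. The side-chain cleavage gene cp11a (g4682) had 29.1 CPM in silver ovary against 8.95 CPM in yellow ovary, 3.26-fold higher (2.83 to 3.76). The next step, 3-beta-hydroxysteroid dehydrogenase, was covered by a pair of 3bhs rows, g10190 with 39.8 CPM in the silver library against 70.8 CPM in the yellow and g33843 with 10.2 silver CPM and 29.7 yellow CPM. They were lower in the silver library by 1.78-fold (1.66 to 1.91) and 2.92-fold (2.58 to 3.31).

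The step after that is carried out by cp17a. Its main row (g22995) had 31.1 CPM in silver ovary against 2.78 CPM in yellow ovary, 11.2-fold higher (8.84 to 14.3), and the matured library had 302 CPM. A further row of that name (g10692) had 14 CPM in the silver library against 2.29 CPM in the yellow, 6.11-fold higher (4.68 to 8.096), with 101 CPM in the matured library. Both rows of cp17a above 10 CPM were thus past the threshold, and in both the yellow library was lowest of the 3 eels and the matured library highest. Aromatase, cp19a, which makes oestrogen, was near the limit of counting, with 1.43 silver and 0.1503 yellow CPM for g9349 and 0.928 silver and 0.526 yellow CPM for g9348. The row g9349 was 9.52-fold higher (3.51 to 36.2), and g9348 was 1.76-fold higher (0.925 to 3.55), an interval that includes no difference. Neither row reached 10 CPM, so neither was counted.

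Enzymes that convert steroids further were also higher. The 5-alpha-reductase gene s5a1 (g8630) had 58.8 silver CPM and 12.1 yellow CPM, 4.84-fold higher (4.305 to 5.46). Carbonyl reductase cbr1 (g8096), a relative of the enzyme that makes the maturation-inducing progestin in fish, had 378 CPM in silver ovary against 98.1 CPM in yellow ovary, 3.85-fold higher (3.69 to 4.02). Of 13 steroid synthesis genes with at least 10 CPM, 3 were at least 4-fold higher, or 23.1% against the background of 3.69%, and none was lower. Of these 3, 2 are the rows of cp17a, which can be pieces of the same gene. A ratio above 0 was found in 11 of the 13, against 6681 of all 12462 genes.

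**Figure D5:**
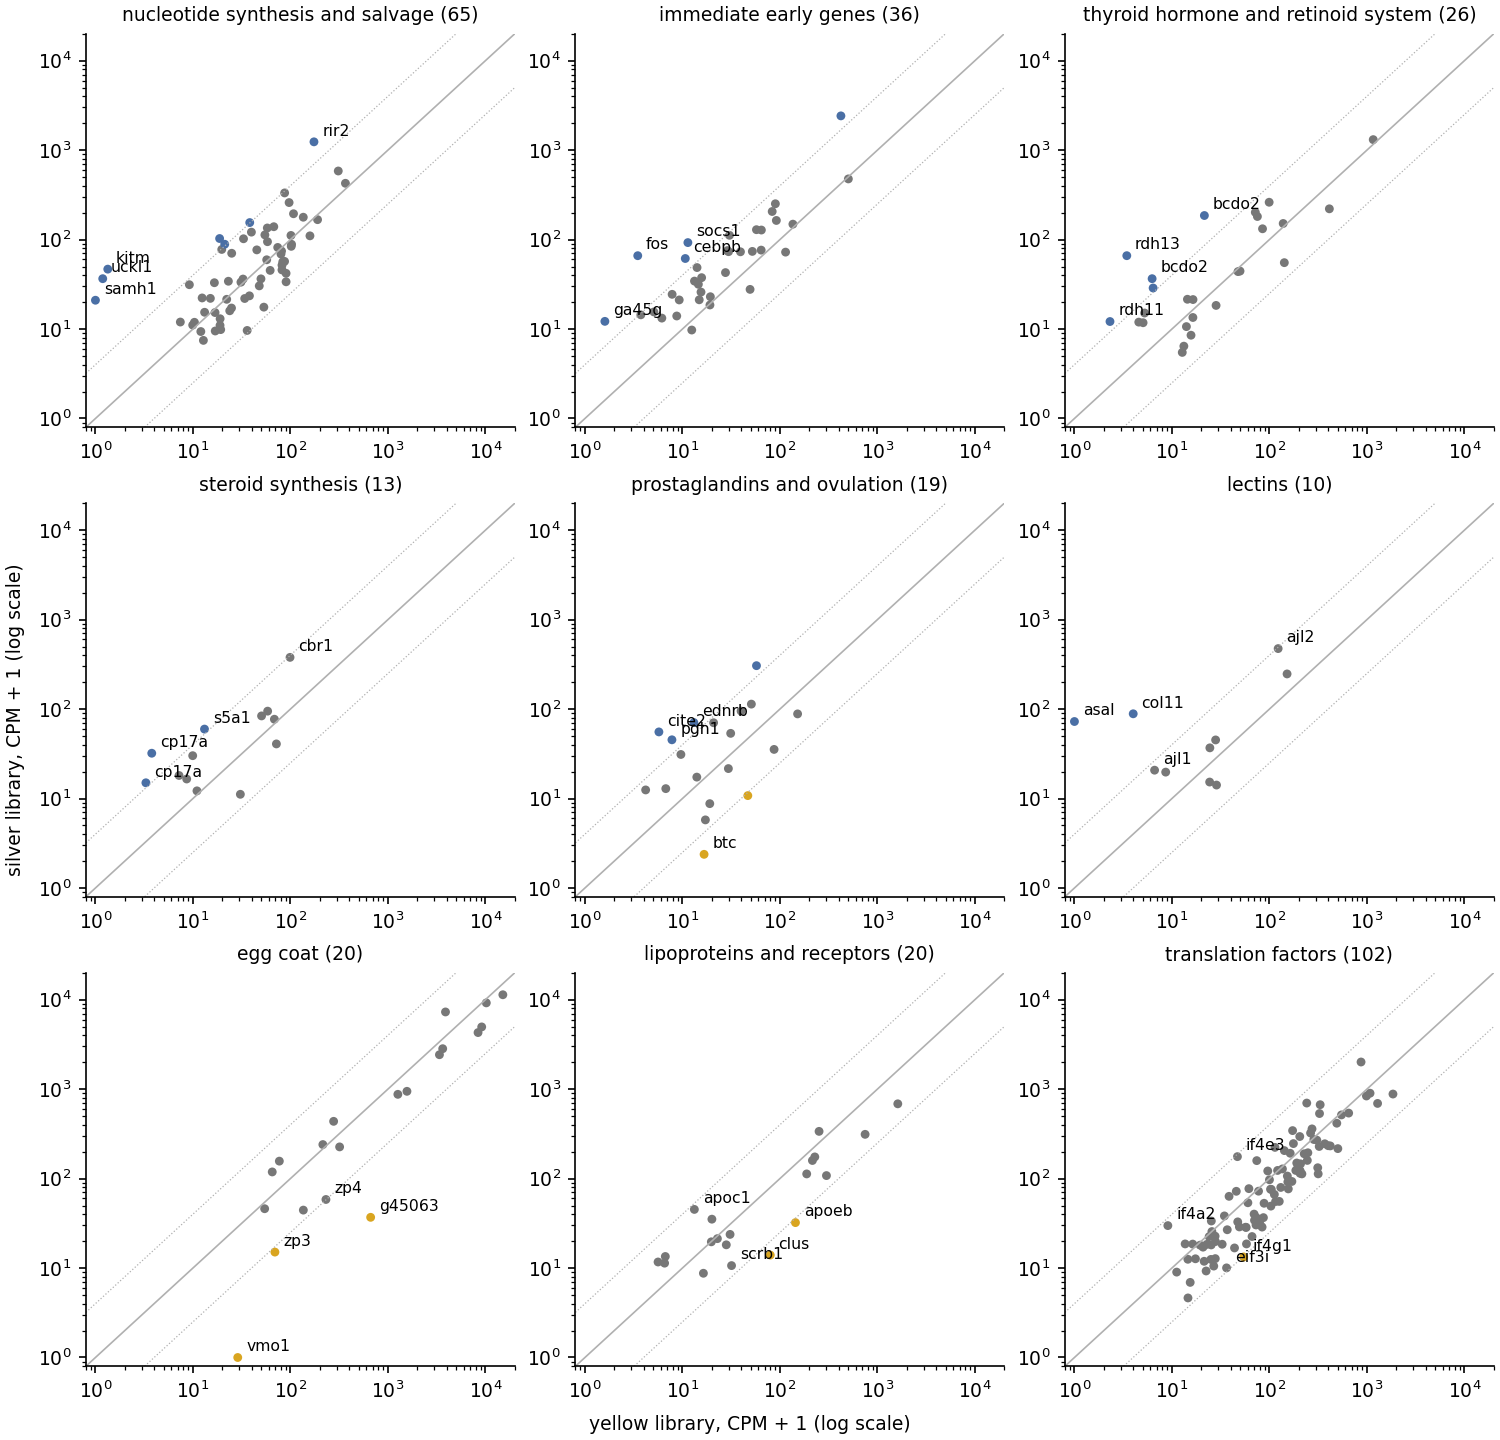
Silver CPM + 1 against yellow CPM + 1, both on log axes, for the members of 9 gene lists that reached 10 CPM (their number in brackets). Blue points are at least 4-fold higher and yellow points 4-fold lower in silver ovary, the solid line marks equal values and the dotted lines a 4-fold difference; rir2 of the nucleotide list lies at 1237 silver against 173 yellow CPM.

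Cholesterol synthesis supplies the substrate, and its genes did not all go the same way. The sterol feedback protein insi1 (g16051) had 14.8 CPM in the silver library against 1.43 CPM in the yellow, 10.4-fold higher (7.48 to 14.8). The rate-limiting reductase hmdh (g24415) had 107 silver CPM and 29.9 yellow CPM, 3.57-fold higher (3.31 to 3.86). The lanosterol demethylase cp51a (g1495) had 44.4 CPM in silver ovary against 6.88 CPM in yellow ovary, 6.46-fold higher (5.54 to 7.57). The gene erg19 (g17464), whose enzyme makes the isoprene unit, had 69.1 CPM in the silver library against 15.4 CPM in the yellow, 4.47-fold higher (4.03 to 4.98). Against these, the later enzyme nsdhl (g9044) had 40.6 silver CPM and 153 yellow CPM, 3.76-fold lower (3.54 to 3.99). Among the 19 that reached 10 CPM, 3 were past the threshold as higher (15.8%, against 3.69% of all genes) and none as lower. Of 27 members at 1 CPM or more, 17 had a ratio above 0.

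Receptors for reproductive and metabolic hormones had few reads in both libraries. The androgen receptor rows had 8.22 silver and 5.98 yellow CPM for g5987 and 5.01 silver and 1.65 yellow CPM for g1927, and g1927 was 3.03-fold higher (2.17 to 4.31). Oestrogen receptor beta esr2 had rows on either side of equality, g6324 at 1.01 and g9961 at -0.24 on the log2 scale. The progesterone receptor prgr had 0.451 silver and 0.564 yellow CPM, compared with 13.4 CPM in the matured library. The gonadotropin receptor fshr had 0.689 silver and 0.752 yellow CPM. At these levels a difference between silver and yellow was not detectable for fshr, whose counting interval ran on either side of no difference.

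Of the receptors for metabolic signals, the leptin receptor row g5536 was 2.21-fold higher (1.84 to 2.66) with 13.1 CPM in silver ovary against 5.94 CPM in yellow ovary, while its other rows, g3839 and g3840, were 1.099-fold and 1.14-fold higher. The insulin receptor row g13574 had 12.4 CPM in the silver library against 5.56 CPM in the yellow, 2.23-fold higher (1.85 to 2.696), and the rows g18242 and g19979, also above 10 CPM, were 1.26-fold and 1.34-fold lower. Rows of the same name can be pieces of 1 gene, since the genes are computer predictions. Among factors that act in follicle cells, the orphan receptor nr5a2 (g19817), a regulator of steroid enzyme genes, had 17.4 silver CPM and 99.7 yellow CPM, 5.73-fold lower (5.26 to 6.25). The receptor for gonadotropin-releasing hormone gnrr2 (g8966) had 24.3 CPM in silver ovary against 19.5 CPM in yellow ovary, a difference of 1.24-fold.

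Prostaglandins are made from membrane lipids and act at ovulation. Their synthases were higher in the silver library, and the thromboxane synthase was lower. The cyclooxygenase pgh1 (g9053), which starts the pathway, had 44.4 CPM in the silver library against 6.803 CPM in the yellow, 6.52-fold higher (5.59 to 7.64). The synthase ptges (g731), which forms prostaglandin E, had 305 silver CPM and 56.5 yellow CPM, 5.39-fold higher (5.11 to 5.696). The thromboxane synthase thas (g15233) had 9.78 CPM in silver ovary against 45.9 CPM in yellow ovary, 4.69-fold lower (4.17 to 5.28). Among other genes of the list, the endothelin receptor ednrb (g12842) had 69.7 CPM in the silver library against 12.1 CPM in the yellow, 5.76-fold higher (5.13 to 6.48), and cite2 (g2544), a partner of transcription coactivators, had 54.6 silver CPM and 4.74 yellow CPM, 11.5-fold higher (9.62 to 13.9). A further cite2 row had a log2 ratio of -0.78. The other gene of the list at least 4-fold lower was the growth factor btc. Of 19 members with at least 10 CPM 4 were higher (21.1%) and 2 lower (10.5%), against 3.69% and 1.43% of all genes.

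The egg coat is built by zona pellucida proteins, which in teleosts are made in the liver, the oocyte or both. Egg coat transcripts took the most reads among named genes in both libraries, and more of them were lower than higher in the silver library. The row with the most reads, zp2 (g45297), had 11352 CPM in silver ovary against 15099.9 CPM in yellow ovary, 1.33-fold lower (1.32 to 1.34). The zp3 rows g16004 and g13702 had 4959 and 4288 CPM in the silver library against 9162 and 8403 CPM in the yellow library. The zp3 row g36576 had 9209.6 CPM in the silver library against 10213 CPM in the yellow, a difference of 1.11-fold. The zp1 row g15786 went the other way, with 7289.9 silver CPM and 3895 yellow CPM, 1.87-fold higher (1.86 to 1.88).

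Larger differences were found in egg coat rows with fewer reads. Choriogenin H (g45063), an egg coat protein first known from fish liver, had 35.9 CPM in silver ovary against 664 CPM in yellow ovary, 18.5-fold lower (17.5 to 19.6), with 131 CPM in the matured library. Another zp3 row (g29228) had 14.1 CPM in the silver library against 68.3 CPM in the yellow, 4.85-fold lower (4.404 to 5.36). The zp4 row g8286 had 57.4 silver CPM and 230.4 yellow CPM, 4.01-fold lower (3.82 to 4.22), just short of the threshold after 1 CPM was added. With vmo1, 3 of 20 egg coat genes were at least 4-fold lower (15%, against 1.43% of all genes) and none higher. Of 21 members at 1 CPM or more, 6 had a ratio above 0. The summed level of the list was 45547 CPM in the silver library and 58759.9 CPM in the yellow library.

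Genes that regulate oocyte RNA had a median of -0.32 over 56 members, with 20 above 0. Of 36 with at least 10 CPM 1 was past the threshold, the tdrd7 row g42983, which was lower (2.78%, against 1.43% of all genes). The oocyte transcription factor nobox (g9131) had 25.2 CPM in silver ovary against 90.7 CPM in yellow ovary, 3.59-fold lower (3.33 to 3.88). The germ line RNA-binding gene nano1 (g8160) had 62.4 CPM in the silver library against 15.3 CPM in the yellow, 4.08-fold higher (3.67 to 4.54). The tudor domain genes tdrd6 (g13340) and tdrd7 (g16888) differed in direction, with tdrd6 at 292 silver CPM and 97.8 yellow CPM, 2.98-fold higher (2.86 to 3.11), and tdrd7 at 32.8 CPM in silver ovary against 108 CPM in yellow ovary, 3.31-fold lower (3.09 to 3.54). The oocyte growth factors gdf9 and bmp15 were 1.91-fold (1.81 to 2.03) and 1.29-fold (1.23 to 1.35) higher in the silver library.

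Yolk and lipid supply to the oocyte depends on lipoprotein receptors and fatty acid carriers. Rows of the lipoprotein receptor vldlr were lower and fatty acid-binding proteins higher in the silver library. The vldlr row g14275 had 311 CPM in the silver library against 747 CPM in the yellow, 2.398-fold lower (2.34 to 2.45), and the row g40667 had 107 silver CPM and 299 yellow CPM, 2.79-fold lower (2.69 to 2.903). The row g14276 had 684 CPM in silver ovary against 1617 CPM in yellow ovary, but only 14.4% of its silver reads and 20.1% of its yellow reads were placed uniquely. The fourth row, g1875, was 1.31-fold lower (1.26 to 1.35), so all vldlr rows had a ratio below 0.

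The carriers showed the reverse. The adipocyte-type gene fabp4 (g3192) had 1527 CPM in the silver library against 394 CPM in the yellow, 3.87-fold higher (3.79 to 3.96), the intestinal-type gene fabpi (g17208) had 360.2 silver CPM and 129 yellow CPM, 2.78-fold higher (2.68 to 2.89), and the heart-type gene fabph (g8706) had 82.6 CPM in silver ovary against 59.5 CPM in yellow ovary, 1.39-fold higher (1.31 to 1.48). None passed the threshold, but all 3 had a ratio above 0. The adipocyte marker plin1 (g8968), which coats lipid droplets in fat cells, had 14.9 CPM in the silver library against 15.6 CPM in the yellow and did not move with fabp4. Among lipoproteins, the apolipoprotein E gene apoeb (g15956) had 31.2 silver CPM and 143 yellow CPM, 4.59-fold lower (4.301 to 4.91), and reached 3139.8 CPM in the matured library. The lipid-binding chaperone clus (g2538) had 12.97 CPM in silver ovary against 78.6 CPM in yellow ovary, 6.06-fold lower (5.49 to 6.703), and the carrier apoc1 (g15955) had 44.2 CPM in the silver library against 12.3 CPM in the yellow, 3.61-fold higher (3.204 to 4.08).

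Genes that make fatty acids and lipid droplets had a median of -0.12. Of 44 counted, 1 was past the threshold, as higher (2.27%, against 3.69% of all genes). That gene, the desaturase acod (g5657), which makes monounsaturated fatty acids, had 13.3 silver CPM and 1.69 yellow CPM, 7.84-fold higher (5.77 to 10.9). Another acod row had a log2 ratio of -0.70. The triglyceride synthase dgat2 (g21138) had 14.9 CPM in silver ovary against 5.45 CPM in yellow ovary, 2.73-fold higher (2.27 to 3.299), and the acetyl-CoA carboxylase row acacb (g29266) had 8.299 CPM in the silver library against 20.4 CPM in the yellow, 2.46-fold lower (2.14 to 2.84). In fatty acid breakdown and ketone metabolism, the ketone body dehydrogenase bdh (g6169) had 251 silver CPM and 51.2 yellow CPM, 4.904-fold higher (4.63 to 5.19). The median of the fatty acid oxidation list was 0.25, with 28 of 48 members above 0.

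Retinoid metabolism turns carotenoids and retinol into the ligand of the retinoic acid receptors. Of 26 thyroid hormone and retinoid genes with at least 10 CPM, 5 were at least 4-fold higher in silver ovary and none was lower. This is 19.2%, against 3.69% of all genes. All 5 belong to retinoid metabolism, and 2 of them are rows of the same name. The retinol dehydrogenase row rdh13 (g2559) had 65.1 CPM in silver ovary against 2.44 CPM in yellow ovary, 26.6-fold higher (20.8 to 34.6), and rdh11 (g45933) had 11.1 CPM in the silver library against 1.32 CPM in the yellow, 8.47-fold higher (5.99 to 12.3). Both rows of the carotenoid-cleaving enzyme bcdo2 were higher, g16736 with 185 silver CPM and 20.5 yellow CPM, 9.01-fold higher (8.25 to 9.84), and g22864 with 35.6 CPM in silver ovary against 5.26 CPM in yellow ovary, 6.76-fold higher (5.67 to 8.10). The retinoid-binding protein ret7 (g21211) had 27.8 CPM in the silver library against 5.41 CPM in the yellow, 5.13-fold higher (4.31 to 6.15). The other counted rows of rdh13, rdh11 and ret7 had log2 ratios of -0.12, 0.64 and 0.18. The retinoic acid receptor rarb (g5924) had 21.1 silver CPM and 7.18 yellow CPM, 2.94-fold higher (2.504 to 3.46). The deiodinase iod3 (g8870), which inactivates thyroid hormone, had 14.1 CPM in silver ovary against 4.25 CPM in yellow ovary, 3.32-fold higher (2.71 to 4.11), and iod1 (g5728) had 20.4 CPM in the silver library against 15.4 CPM in the yellow, 1.32-fold higher (1.17 to 1.49).

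Nucleotide salvage and synthesis supply building blocks for DNA and RNA. Of 65 genes of this list with at least 10 CPM, 7 were at least 4-fold higher in silver ovary and none was lower. This is 10.8% against the background of 3.69%. The adenylate kinase domain gene akd1, with 0.318 silver CPM and 113 yellow CPM, was not in the list, so the count leaves it out. The mitochondrial thymidine kinase kitm (g3546), which salvages thymidine, had 45.7 silver CPM and 0.338 yellow CPM, 135-fold higher (71.1 to 296). A relative of uridine-cytidine kinases, uckl1 (g8305), had 35.6 CPM in silver ovary against 0.188 CPM in yellow ovary, 189-fold higher (80.9 to 584). Its low yellow value makes the interval wide. The lowest of the 3 uckl1 rows counted had a log2 ratio of 0.16. Ribonucleotide reductase subunit rir2 (g12220), which makes deoxyribonucleotides, had 1237 CPM in the silver library against 173 CPM in the yellow, 7.14-fold higher (6.92 to 7.36). This row had 84.4 CPM in the matured library, and another rir2 row had a log2 ratio of -0.69.

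The purine salvage enzyme hprt (g3310) had 102 silver CPM and 17.8 yellow CPM, 5.73-fold higher (5.202 to 6.31), and the adenylate kinase kad4 (g3842) had 87.7 CPM in silver ovary against 20.2 CPM in yellow ovary, 4.35-fold higher (3.97 to 4.77). Also past the threshold were the cytosolic thymidine kinase kith and samh1. As given above, samh1 is known in mammals to break such building blocks down, so not all counted members supply them. The median of the whole list was 0.09, and 62 of 117 members at 1 CPM or more had a ratio above 0. In the neighbouring methionine cycle the list had 1 of 20 genes past the threshold, bhmt1, which was lower (5%, against 1.43% of all genes). There both rows of the folate enzyme ftcd were lower, g8634 with 47.5 CPM in the silver library against 177 CPM in the yellow, 3.73-fold lower (3.53 to 3.94), and g8633 with 6.204 silver CPM and 20.1 yellow CPM, 3.24-fold lower (2.77 to 3.796). S-adenosylmethionine synthase metk2 (g8613) had 111 CPM in silver ovary against 33.8 CPM in yellow ovary, 3.27-fold higher (3.04 to 3.52).

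DNA replication and cell division lists had medians of -0.13 and 0.07. Of 89 replication genes with at least 10 CPM 1 was at least 4-fold higher (1.12%), as were 2 of 117 cell division genes (1.71%). Both shares were under the 3.69% of all genes, and no member was at least 4-fold lower. The members past the threshold were orc6, cdn1b and cenpw. The replication origin subunit orc6 (g8026) had 379 CPM in the silver library against 61.3 CPM in the yellow, 6.19-fold higher (5.88 to 6.52). The cell cycle inhibitor cdn1b (g11409), which blocks entry into DNA synthesis, had 32.96 silver CPM and 4.999 yellow CPM, 6.59-fold higher (5.51 to 7.94), and the centromere protein cenpw (g8571) had 104 CPM in silver ovary against 20.7 CPM in yellow ovary, 5.01-fold higher (4.58 to 5.48). All 3 rows of the checkpoint gene clspn were lower, by 3.398-fold (g7377), 3.04-fold (g25545) and 3.202-fold (g7378). Cyclin B, ccnb1 (g2311), had 5664 CPM in the silver library against 6475 CPM in the yellow, a difference of 1.14-fold. No meiosis gene of 15 passed the threshold, which in so short a list is little different from the 5.12% of all genes. The meiotic cohesin smc1b (g5613) had 39.4 silver CPM and 125 yellow CPM, 3.17-fold lower (2.98 to 3.37).

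Immediate early genes are switched on within minutes by growth signals or stress, without new protein synthesis. In the silver library 51 of 58 such genes at 1 CPM or more had a ratio above 0. Of 36 with at least 10 CPM, 5 were at least 4-fold higher (13.9%) and none was lower, against 3.69% and 1.43% of all genes. The transcription factor fos (g12409) had 65.1 CPM in silver ovary against 2.48 CPM in yellow ovary, 26.2-fold higher (20.5 to 34.02), with 39.7 CPM in the matured library. The cytokine brake socs1 (g5447) had 91.6 CPM in the silver library against 10.4 CPM in the yellow, 8.83-fold higher (7.805 to 10.01), and the factor cebpb (g6933) had 60.5 silver CPM and 9.697 yellow CPM, 6.23-fold higher (5.48 to 7.12). The growth-arrest gene ga45g (g11786) had 11.2 CPM in silver ovary against 0.601 CPM in yellow ovary, 18.6-fold higher (11.3 to 32.9). A further ga45g row had a log2 ratio of -0.83.

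The antiproliferative gene btg1 (g22012) had 2414 CPM in the silver library against 421 CPM in the yellow, 5.73-fold higher (5.62 to 5.85), and it was also among the 10 named genes with the largest gain in CPM. The lowest of the 3 btg1 rows counted had a log2 ratio of 0.25. Heat shock and chaperone genes did not move with the immediate early genes. None of 84 passed the threshold, against 5.12% of all genes. The list median was -0.08, or 0.06 with the length trend removed, where the median of all genes was 0.11. The abundant heat shock genes hs90b (g11574) and hsp70 (g7708) were 2.04-fold (2.02 to 2.06) and 1.697-fold (1.68 to 1.71) lower. Among genes tied to season and temperature, the cold-inducible gene cirbp (g9912) had 279.5 silver CPM and 413 yellow CPM, 1.48-fold lower (1.44 to 1.52). No clock gene of 23 passed the threshold. Over all genes 5.12% did, so none in a list of this size is little different. The clock repressor cry2 (g950) had 36.7 CPM in silver ovary against 9.36 CPM in yellow ovary, 3.92-fold higher (3.42 to 4.51).

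Growth factor signalling held a receptor and its ligands that went different ways. The receptor egfr (g12558) had 89.01 CPM in the silver library against 6.16 CPM in the yellow, 14.4-fold higher (12.3 to 16.99). Its ligand tgfa (g11337) had 42.1 silver CPM and 5.68 yellow CPM, 7.41-fold higher (6.27 to 8.81), whereas the ligand btc (g14739) had 1.38 CPM in silver ovary against 15.7 CPM in yellow ovary, 11.4-fold lower (8.51 to 15.5). In the BMP pathway the ligand bmp2 (g1844) had 32.4 CPM in the silver library against 6.92 CPM in the yellow, 4.68-fold higher (4.01 to 5.501), and id1 (g20038), a target gene of BMP signalling, had 692 silver CPM and 117 yellow CPM, 5.93-fold higher (5.71 to 6.15). Its relative id2 (g7381) had 14.5 CPM in silver ovary against 4.398 CPM in yellow ovary, 3.29-fold higher (2.69 to 4.05), and the receptor acvr1 (g11303) had 32.6 CPM in the silver library against 10.3 CPM in the yellow, 3.18-fold higher (2.79 to 3.64). All 4 had a ratio above 0, but they were named for their large ratios, so their shared direction says nothing about the list. Noggin-2, nogg2 (g22318), had 11.8 silver CPM and 2.33 yellow CPM, 5.06-fold higher (3.87 to 6.72), short of the threshold after 1 CPM was added. The lowest log2 ratio among members with at least 10 CPM was -1.78. The BMP, activin and TGF-beta list as a whole had a median of 0.10, with 36 of 63 members above 0. The Wnt ligand wn11b (g1509) had 11.3 silver CPM and 0.864 yellow CPM, 13.1-fold higher (8.63 to 20.9).

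Immune genes held some of the largest differences in each direction. Of 10 lectins 8 had a ratio above 0, as did 5 of 7 pattern recognition genes, against 6681 of all 12462 genes. Genes at least 4-fold lower numbered 3 of 21 in the interferon list, 1 of 8 in the complement list and 1 of 19 in the cytokine list. They numbered 1 of 4 in the immunoglobulin list and 1 of 14 in the phagocyte list. Of all genes 1.43% were lower, and single genes in such small lists weigh heavily. The cytokine list also held 2 genes at least 4-fold higher (10.5%, against 3.69% of all genes). Besides asal, collectin-11, col11 (g13668), a soluble lectin that binds microbial sugars, had 87.6 CPM in silver ovary against 3.01 CPM in yellow ovary, 29.1-fold higher (23.3 to 36.8). The eel skin mucus lectins ajl2 (g45747) and ajl1 (g20161), named after lectins of the Japanese eel, had 474 and 19.8 CPM in the silver library against 122 and 5.64 CPM in the yellow library. They were 3.89-fold (3.74 to 4.04) and 3.504-fold (2.94 to 4.204) higher, short of the threshold. Of 10 lectins with at least 10 CPM 2 were past it, both higher (20%, against 3.69% of all genes).

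Caspase-1, casp1 (g18684), the protease that activates interleukin-1, had 437 CPM in the silver library against 39.5 CPM in the yellow, 11.1-fold higher (10.4 to 11.8), and 11.7 CPM in the matured library. The receptor tlr2 (g1080), which senses bacterial lipoproteins, had 21.3 silver CPM and 2.63 yellow CPM, 8.102-fold higher (6.34 to 10.5). Other toll-like receptors were lower, with tlr13 (g15177) at 8.43 CPM in silver ovary against 25.9 CPM in yellow ovary and tlr3 (g12485), a sensor of double-stranded RNA, at 15.7 CPM in the silver library against 26.3 CPM in the yellow. The chemokine ccl25 (g1848) had 33.8 silver CPM and 1.43 yellow CPM, 23.7-fold higher (17.1 to 33.6), and tnr14 (g25674), a receptor of the tumour necrosis factor family, had 54.9 CPM in silver ovary against 5.68 CPM in yellow ovary, 9.67-fold higher (8.19 to 11.5). The interleukin-1 receptor accessory protein il1ap (g4342) had 119 CPM in the silver library against 805 CPM in the yellow, 6.76-fold lower (6.54 to 6.98).

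Interferon-induced genes did not form a group. The row if44l (g26148) had 6.496 silver CPM and 95.2 yellow CPM, 14.7-fold lower (12.9 to 16.8), and 106 CPM in the matured library, while the ifi44 rows g39396 and g13181 were 2.96-fold (2.701 to 3.26) and 2.76-fold (2.59 to 2.93) higher. Of 21 such genes with at least 10 CPM none was at least 4-fold higher and 3 were lower (14.3%, against 1.43% of all genes). By contrast, 28 of 48 members at 1 CPM or more had a ratio above 0. Among complement genes cfab (g8748), which starts the alternative pathway, had 72.9 CPM in silver ovary against 157 CPM in yellow ovary, 2.15-fold lower (2.05 to 2.26). The TRIM gene a33 (g9993) had 40.9 CPM in the silver library against 0.113 CPM in the yellow, 363-fold higher (123.8 to 1760.2), and the TRIM row tri39 (g30740) had 79.3 silver CPM and 9.25 yellow CPM, 8.58-fold higher (7.53 to 9.81). A further a33 row (g11867) was 2.43-fold lower (2.32 to 2.54), so rows of this name did not move together. The 4 counted tri39 rows had log2 ratios from -0.39 to 2.97.

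Markers of immune cells as such were few. Of 69 immune marker rows 26 reached 1 CPM in either library, and 6 reached 10 CPM. The rows for cd3g, lck and zap70 of T cells, csf1r of macrophages and cy24b of neutrophils stayed under 1 CPM, and the neutrophil peroxidase row perm had no reads. The summed level of the list was 251 CPM in the silver library, 189 CPM in the yellow library and 516 CPM in the matured library. Of 23 rows with at least 1 CPM on average, 18 had a ratio above 0, and the list median was 0.60. Of the 6 rows that reached 10 CPM, 3 had a ratio above 0. Among these 6 only tlr2, given above, was at least 4-fold higher (16.7%, against 3.69% of all genes), and none was lower. Lysozyme g, lyg (g4949), had 65.7 CPM in silver ovary against 48.1 CPM in yellow ovary. The chemokine receptor cxcr4 (g44825) had 44.9 CPM in the silver library against 16.1 CPM in the yellow, 2.79-fold higher (2.504 to 3.104). The neutrophil factor ncf4 (g13354) had 22.3 silver CPM and 34.7 yellow CPM, 1.56-fold lower (1.42 to 1.71), and tlr3 and tlr13, given above, were lower too. Of the immunoglobulin rows, the kappa chain row g42422 had 61.96 silver CPM and 21.6 yellow CPM while the gamma chain row igg2b (g28849) had 1.43 CPM in silver ovary against 10.4 CPM in yellow ovary.

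Programmed cell death genes were higher on balance, with 39 of 52 members at 1 CPM or more above 0. Of 33 with at least 10 CPM, 3 were at least 4-fold higher (9.09%, against 3.69% of all genes) and none was lower. Besides casp1 the higher genes were bir52 (g25716), an inhibitor of apoptosis, with 109 CPM in the silver library against 18 CPM in the yellow, 6.07-fold higher (5.52 to 6.68), and the adaptor fadd (g3264), which links death receptors to caspases, with 81.8 silver CPM and 15.4 yellow CPM, 5.29-fold higher (4.77 to 5.88). The genes past the threshold thus include an inhibitor and an activator of cell death. The death ligand tnfl6 (g9275) had 6.58 CPM in silver ovary against 27.3 CPM in yellow ovary, 4.16-fold lower (3.59 to 4.82). The autophagy receptor optn (g25607) had 16.3 CPM in the silver library against 0.827 CPM in the yellow, 19.7-fold higher (12.9 to 31.7). Another optn row had a log2 ratio of -0.61. The autophagy list had a median of 0.04, turning to -0.03 with library totals alone, where the median of all genes was -0.06. The lysosomal activator sap3 (g758) had 199 silver CPM and 29.02 yellow CPM, 6.86-fold higher (6.37 to 7.40), and the abundant protease cats (g1076) had 4798 CPM in silver ovary against 1853 CPM in yellow ovary, 2.59-fold higher (2.56 to 2.62).

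Several iron storage and detoxification genes were higher, and a glutathione transferase was lower. The ferritin row frim (g8265) had 42.3 CPM in the silver library against 2.52 CPM in the yellow, 16.8-fold higher (13.1 to 21.8), and the abundant ferritin rows frim (g8785) and frih (g8786) were 2.32-fold (2.295 to 2.35) and 2.09-fold (2.05 to 2.13) higher. Glutathione transferase gstk1 (g16337) had 201 silver CPM and 31.8 yellow CPM, 6.31-fold higher (5.88 to 6.78), and peroxiredoxin prdx1 (g13223) had 152 CPM in silver ovary against 36.5 CPM in yellow ovary, 4.16-fold higher (3.89 to 4.46). The transferase gsta (g25875) went the other way, with 51.6 CPM in the silver library against 274 CPM in the yellow, 5.31-fold lower (5.05 to 5.58). The xenobiotic-induced enzyme cp1a1 (g20958), a standard marker of exposure to dioxin-like compounds, had 17.9 silver CPM and 2.33 yellow CPM, 7.67-fold higher (5.91 to 10.1). Of 51 antioxidant and detoxification genes 3 were at least 4-fold higher (5.88%) and 1 lower (1.96%), against 3.69% and 1.43% of all genes.

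Respiration genes had a median above 0, and the genes of glycolysis and the citrate cycle had medians below 0. Oxidative phosphorylation genes had a median of 0.37, with 65 of 105 above 0, and 0.53 with the length trend removed. Glycolysis genes had a median of -0.40, with 28 of 87 above 0, and the TCA cycle list one of -0.34, with 15 of 49 above 0. The complex I subunit nduc1 (g19947) had 114 CPM in silver ovary against 16.1 CPM in yellow ovary, 7.05-fold higher (6.38 to 7.799), and cytochrome c, cyc (g11826), had 14.8 CPM in the silver library against 2.56 CPM in the yellow, 5.81-fold higher (4.51 to 7.59). Citrate synthase cisy (g16969) had 51.5 silver CPM and 110.1 yellow CPM, 2.14-fold lower (2.02 to 2.26). The ATP synthase subunit atpb (g15560) had 1195 CPM in silver ovary against 2462 CPM in yellow ovary, 2.06-fold lower (2.04 to 2.09), against the direction of its list. Within glycolysis the aldolase row aldoc (g6049) had 18.03 CPM in the silver library against 0.263 CPM in the yellow, 68.5-fold higher (33.1 to 171). The other counted aldoc row had a log2 ratio of -0.05. The mutase pgam1 (g17961) had 115 silver CPM and 319 yellow CPM, 2.79-fold lower (2.69 to 2.89).

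Pyruvate dehydrogenase kinase pdk2 (g8428), which holds back the entry of pyruvate into the citrate cycle, had 65.4 CPM in silver ovary against 13.3 CPM in yellow ovary, 4.91-fold higher (4.39 to 5.51). Mitochondrial ribosomal proteins had a median of 0.27, with 60 of 81 above 0, whereas cytosolic ribosomal proteins had one of 0.07 and translation factors one of -0.43. The mitochondrial ribosomal gene rt25 (g631) had 142 CPM in the silver library against 33.04 CPM in the yellow, 4.31-fold higher (4.01 to 4.63). Translation factors had 31 of 125 members above 0, and their median was -0.25 with the length trend removed, where the median of all genes was 0.11. Among them if4g1 (g5107), the scaffold of the cap-binding complex, had 12.3 silver CPM and 53.4 yellow CPM, 4.34-fold lower (3.91 to 4.83). The other counted if4g1 row had a log2 ratio of -0.47. The cap-binding gene if4e3 (g875) had 175 CPM in silver ovary against 45.97 CPM in yellow ovary, 3.81-fold higher (3.58 to 4.05).

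Cytoskeletal and contractile genes were lower on balance. Motor proteins and tubulins had a median of -0.38, with 52 of 160 above 0. Of 98 with at least 10 CPM 3 were at least 4-fold higher and 3 lower (3.06% each), against 3.69% and 1.43% of all genes. The tubulin row tba (g10699) had 1893 CPM in the silver library against 3303 CPM in the yellow, 1.74-fold lower (1.73 to 1.76), and the row tbb7 (g13117) had 26.3 silver CPM and 3.12 yellow CPM, 8.42-fold higher (6.73 to 10.7). Smooth muscle genes had a median of -0.44, with 16 of 57 above 0. None of 27 passed the threshold, little different in a list of this size from the 5.12% of all genes. Leiomodin, lmod1 (g24592), which builds actin filaments in muscle, had 42.7 CPM in silver ovary against 123.2 CPM in yellow ovary, 2.89-fold lower (2.72 to 3.06). The 31 rows of the smooth muscle marker list summed to 979.7 CPM in the silver library and 1402 CPM in the yellow library, and the rows desm and smtn were under 1 CPM in both. Most of both sums is mylk (g8591), with 690 silver CPM and 936 yellow CPM. Of the 5 marker rows with at least 10 CPM, 1 had a ratio above 0, tagl (g17080), with 22.7 silver CPM and 16.3 yellow CPM.

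Epithelial and matrix genes held a few large differences. The keratin row k1c18 (g7586) had 26.04 CPM in the silver library against 164 CPM in the yellow, 6.31-fold lower (5.89 to 6.77), while the row k1c13 (g11446) had 118 silver CPM and 20.1 yellow CPM, 5.85-fold higher (5.35 to 6.41), with 67.4% of its silver and 70.1% of its yellow reads placed uniquely. The k1c18 rows g6911 and g5911 were 1.82-fold and 1.59-fold higher. Another k1c13 row had a log2 ratio of -0.25. The collagen rows coea1 (g2327) and co6a1 (g6965) had 23.5 and 24.8 CPM in the silver library against 0.564 and 1.17 CPM in the yellow library. They were 41.8-fold (25.2 to 74.9) and 21.3-fold (14.9 to 31.6) higher. The fibrillar collagen rows co1a1 (g7014) and co1a2 (g11901) were 1.98-fold and 1.67-fold higher, and had 279 and 305 CPM in the matured library.

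The basement membrane protein nid2 (g4703) had 30.8 CPM in silver ovary against 5.56 CPM in yellow ovary, 5.53-fold higher (4.66 to 6.61). Of proteases that cut matrix, mmp25 (g18620) had 1.33 CPM in the silver library against 14.1 CPM in the yellow, 10.6-fold lower (7.88 to 14.5), and ats18 (g2035) had 19.3 silver CPM and 3.796 yellow CPM, 5.08-fold higher (4.12 to 6.32). The urokinase receptor upar (g40337) had 12.8 CPM in silver ovary against 1.99 CPM in yellow ovary, 6.43-fold higher (4.83 to 8.71). Of 21 matrix protease genes 2 were at least 4-fold higher (9.52%) and 1 lower (4.76%), against 3.69% and 1.43% of all genes.

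Membrane transport genes split in the same way. Of 87 solute carriers 2 were at least 4-fold higher and 2 lower (2.30% each). Of 55 ion pumps and channels there were also 2 and 2 (3.64% each). The background shares were 3.69% higher and 1.43% lower. The creatine transporter sc6a8 (g1382) had 30.9 CPM in the silver library against 187 CPM in the yellow, 6.04-fold lower (5.67 to 6.45), and the proline transporter sc6a7 (g29342) had 15.2 silver CPM and 2.29 yellow CPM, 6.61-fold higher (5.07 to 8.76). The water and glycerol channel aqp3 (g6804) had 34.5 CPM in silver ovary against 7.52 CPM in yellow ovary, 4.596-fold higher (3.96 to 5.36). The oocyte water channel aqp1 (g213) had 1068 CPM in the silver library against 1087 CPM in the yellow, a difference of 1.02-fold. The potassium channel kcnk9 (g1022) had 52.9 silver CPM and 10.9 yellow CPM, 4.87-fold higher (4.30 to 5.53).

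Transcription factors of the SOX and T-box families held large differences. The factor sox3 (g1675), a factor of the nervous system and the gonad, had 2557 CPM in silver ovary against 668 CPM in yellow ovary, 3.83-fold higher (3.77 to 3.89), and it too was among the 10 largest gains in CPM. The factor sox4 (g8108) had 92.4 CPM in the silver library against 8.87 CPM in the yellow, 10.4-fold higher (9.13 to 11.9), and sox11 (g7012) had 205 silver CPM and 51.5 yellow CPM, 3.98-fold higher (3.75 to 4.22). Besides tbx6, the T-box factor tbxt (g9077), which marks early mesoderm, had 5.52 CPM in silver ovary against 33.5 CPM in yellow ovary, 6.08-fold lower (5.22 to 7.104). The homeobox gene dlx4b (g12388) had 22.5 CPM in the silver library against 3.83 CPM in the yellow, 5.86-fold higher (4.77 to 7.27). Of 33 genes in the families of SOX, FOX, GATA, T-box and homeobox factors, 3 were at least 4-fold higher (9.09%) and 2 lower (6.06%). The shares over all genes were 3.69% and 1.43%. The median of this list was -0.08, with 39 of 82 members at 1 CPM or more above 0.

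A name can belong to several rows, and rows of the same name were compared. Of 2146 names with at least 2 rows counted, 163 had a row past the threshold, and none had rows past it in opposite directions. Since only 5.12% of all genes were past it, such opposite rows would be rare in any case, and their absence does not show agreement. Rows of a name could differ in sign: log2 ratios ran from -3.08 to 1.71 for fat4 and from -1.27 to 5.23 for a33. In 142 of the 163 only 1 row was past the threshold, and in 10 names every row counted was. Among these 10 were cp17a and bcdo2, whose rows are given above. Others were the ubiquitin-conjugating gene ube2w and the decapping enzyme gene dcp2, both higher in the silver library. Of zinc finger names, 3 of 7 zn271 rows and 2 of 17 zn180 rows were higher.

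The authors' deposited table gives p-values from DESeq, which was run without replicates and, per the file headers, took the spread from all 3 stages. An adjusted p-value under 0.1 was given to 66 genes in the authors' deposited table, of which 40 were higher and 26 lower in the silver library, and 48 of the 66 were past the 4-fold threshold here. The smallest adjusted p-value in the authors' deposited table was 2.11e-06, for asal. The authors' deposited table gives akd1 an adjusted p-value of 1.83e-05, vmo1 of 5.77e-05 and col11 of 0.0565. For cp17a (g22995) and rir2 (g12220) the adjusted p-value in the authors' deposited table was 1.

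Sorted by the gain or loss in CPM, genes with many reads lead. The largest gains were those of zp1 (g15786), the protease cats and the oocyte linker histone b4 (g1568), which had 4602 silver CPM and 1853 yellow CPM, 2.48-fold higher (2.46 to 2.51). The 10 also held btg1, sox3, the cell surface protein tacd2 (g18030), with 2111 CPM in silver ovary against 666 CPM in yellow ovary, and the nuclear pore gene nup93 (g12844), with 2305 CPM in the silver library against 914 CPM in the yellow. The histone h2b3 (g1632) had 3149 silver CPM and 1639 yellow CPM. The largest losses were those of zp2, the zp3 rows g16004 and g13702, hs90b and the RNA-binding gene roa0 (g9749), with 2615 CPM in silver ovary against 4531 CPM in yellow ovary. None of the 10 genes with the largest losses passed the 4-fold threshold.

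Markers of other tissues were read in the same way. Hepatocyte markers summed to 26.7 CPM in silver ovary and 41.6 CPM in yellow ovary, and the plasma protein rows apoa1, apob and fetub and the yolk precursor row vit2 were under 1 CPM in both. Erythrocyte markers summed to 82.7 CPM in silver ovary and 88.7 CPM in yellow ovary, and 2 of the 3 that reached 10 CPM had a ratio above 0. The globin hbba (g30174) had 10.1 CPM in the silver library against 2.52 CPM in the yellow. The ammonium transporter rhag (g27241) went the other way, with 25.2 silver CPM and 52.1 yellow CPM, 2.07-fold lower (1.91 to 2.25). Skeletal muscle markers summed to 97.2 CPM in silver ovary and 155 CPM in yellow ovary, where myh7 (g10171) alone had 6.26 silver CPM and 38.3 yellow CPM. Endothelial markers summed to 51.8 CPM in silver ovary and 52.6 CPM in yellow ovary, and nerve and glia markers to 125 silver CPM and 134 yellow CPM. Epithelial markers summed to 1311 CPM in silver ovary and 939 CPM in yellow ovary, of which cadh1 (g3555) alone had 823 silver CPM and 467 yellow CPM. Adipocyte markers summed to 1655 CPM in silver ovary and 582 CPM in yellow ovary, which is mostly fabp4, while the fat hormone row adipo was under 1 CPM in both. The part of other cell types in the differences given above was not tested.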

How the data were processed

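Poly(A) mRNA of pooled ovary pieces was sequenced from 1 eel a stage. Genes came from Augustus predictions and names from Blast2GO similarity, per the file headers. The authors counted reads in the CLC bio workbench; the deposited counts are uniquely aligned reads plus a share of reads with several places. A name is therefore that of the most similar protein, and several rows can share it. The authors divided these counts by transcript length and library total to give the deposited RPKM values. The deposited fold ratios, log2 folds and p-values come from DESeq without replicates, per the file headers. Per the submitters' processing notes, further tools were HTSeq, CASAVA, SAMtools 0.1.18 and TopHat2 2.0.5, with no role stated. No genome build is given in these sources, and 1 line of the deposited table was emptied for this work.

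Counts were scaled with TMM factors over 3 libraries (edgeR 4.0.16, R 4.3.3), which were 0.910 for the silver and 0.957 for the yellow library. No test was run. Genes were counted at 4-fold on the log2(CPM + 1) scale, where either library reached 10 CPM; this scale understates the difference of low genes. Intervals of plain folds are exact conditional binomial 95% intervals on the raw counts and cover counting error only. A library without reads was set to a floor of 3 reads, or 0.0795 CPM for the silver and 0.113 CPM for the yellow library. The scripts were tested on simulated data.

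Named genes were the 25 highest and 25 lowest named rows, up to 6 members a list that reached 10 CPM and had the largest ratios in either direction, the 10 largest gains and losses in CPM, the 10 most abundant named rows of each library, 2 rows on each side of the threshold, and a fixed set of hormone, receptor, oocyte and clock genes. Members and lists were chosen with earlier results of these data known. Alternatives were DESeq2 size factors (version 1.42.0), library totals, TMM from 2 libraries, other minimum, pseudocount and fold settings, uniquely aligned reads, a lowess correction for length, and the authors' RPKM. A result that rests on a withheld item is not reported here.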

Additional observations from a re-analysis of the deposited data

How the results depend on the processing

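No paired analysis was possible because each stage is 1 eel, and for the same reason no replicate could be left out. The counts of 460 higher and 178 lower genes stayed within 1.5 times under DESeq2 size factors (479 and 174), library totals (396 and 188), TMM factors from 2 libraries (439 and 170), a minimum of 1 CPM (572 and 236), a pseudocount of 0.1 CPM (573 and 235), a rule on the counting interval (422 and 177), uniquely aligned reads (460 and 181) and removal of the length trend (465 and 151). They moved with a pseudocount of 5 CPM, to 214 higher and 68 lower genes, and with a 2-fold threshold, to 2318 and 1386. With the authors' RPKM 322 genes were higher and 312 lower, with the minimum and pseudocount in RPKM and 13072 genes counted. The share of higher among counted genes was 67.8% with library totals, 75.9% with a pseudocount of 5 CPM, 62.6% at 2-fold and 50.8% with RPKM, against 72.1%. Medians of some lists turned sign, namely heat shock genes and meiosis with the length trend removed, mitotic genes with library totals, histones with library totals, uniquely aligned reads or RPKM, nuclear receptors (-0.02, against 0.40) and endothelial markers with RPKM, and autophagy with library totals or RPKM. The median of all genes moved as well, from -0.0013 to -0.06 with library totals. It was 0.11 with the length trend removed and -0.10 with RPKM. Set against the median of all genes, only meiosis with the length trend removed and histones with uniquely aligned reads changed side. The cause was not tested. Depth limits genes under about 1 CPM, where a few reads set the ratio, and the spread between eels of 1 stage is unknown.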
